A study of Danio rerio with 15 samples.

Results

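By edgeR's quasi-likelihood test, zebrafish larvae exposed to acetochlor at 7.8 µM differed from control in a small set of transcripts, nearly all higher. The comparison sets the 3 libraries at acetochlor 7.8 µM against the 3 untreated control libraries, 6 of the 15 libraries in the series. Its members are the transcripts called by edgeR in that comparison, which numbered 38 of 35865 tested. Limma voom gave a similar number and balance, with 37 higher and 5 lower, and 33 of the 38 members were among them. Neither the small number nor the upward balance held with DESeq2, which gave 252 higher and 179 lower. With acetochlor 7.8 µM replicate III removed, edgeR gave 88 higher and 22 lower. Every group consisted of pooled whole wild-type larvae of the NHGRI-1 strain, collected at 72 h post fertilisation, and the exposures began at 48 h. The other groups used here, also with 3 libraries each, received acetochlor at 780 nM or the pyrethroid insecticide tefluthrin at 60 nM or 2.3 µM. Nothing in the labels says whether the 3 libraries of a group came from separate clutches or exposures. The p-values therefore measure a spread between libraries that may be technical, estimated over all 5 groups together. In pooled whole larvae, fewer cells of a type and less RNA per cell cannot be told apart.

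Acetochlor is a chloroacetanilide herbicide. In plants, herbicides of this class block the elongation of very long chain fatty acids and so stop the growth of seedlings. In animals it is detoxified largely by conjugation to glutathione, with cytochrome P450 enzymes forming further metabolites. Zebrafish hatch and begin to form a working liver over the days in which these larvae were exposed. The files name each transcript by its Ensembl identifier only, and 0 of the 64995 identifiers matched the gene name table or the RefSeq gene table used here. No gene name, function, position or sequence is therefore given for any transcript, and markers of tissues could not be looked up to check the whole-larva label.

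Library totals in the 6 libraries ran from 17495267 to 24576528 estimated counts. Acetochlor 7.8 µM replicate III had the lowest total of these 6 and, at 1.08, the largest scaling factor of the 15. Its root mean square log2 distance to the other libraries of its group was 1.13, against 1.08 for replicate I and 1.09 for replicate II. The 3 control libraries lay 1.04 to 1.06 from each other. Replicate III was thus slightly farther from its group than replicates I and II, and its value is given throughout. This distance was not unusual in the series, as tefluthrin libraries lay 1.13 to 1.15 from their own groups. From the controls, replicate III lay 1.09, between replicate I (1.07) and replicate II (1.1).

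At acetochlor 7.8 µM, 36 transcripts were higher and 2 were lower than in control. In all 38, the 3 exposed libraries lay beyond all 3 controls, as they did in 6.42% of all transcripts tested on the higher side and 7.35% on the lower side. The calls made up 0.106% of the transcripts tested, 0.100% for those higher and 0.00558% for those lower, by edgeR's quasi-likelihood test at an adjusted p-value under 0.05. Values are in CPM, each library's counts set to the same total after scaling between libraries. Of the 36 raised transcripts, 35 had a level above 0 in control, and among these the mean rose by 1.4-fold to 8.66-fold, with a median of 2.11-fold. The median log2 fold change over all transcripts tested was 0.00. The number of calls rested on single libraries: leaving out acetochlor 7.8 µM replicate I gave 23, replicate II 15 and replicate III 110. Leaving out 1 control library at a time gave 23 (replicate I), 22 (replicate II) and 36 (replicate III). DESeq2, with its own scaling and 52785 transcripts tested, called 252 higher and 179 lower, and limma voom on the same 35865 transcripts called 37 higher and 5 lower.

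**Figure D1:**
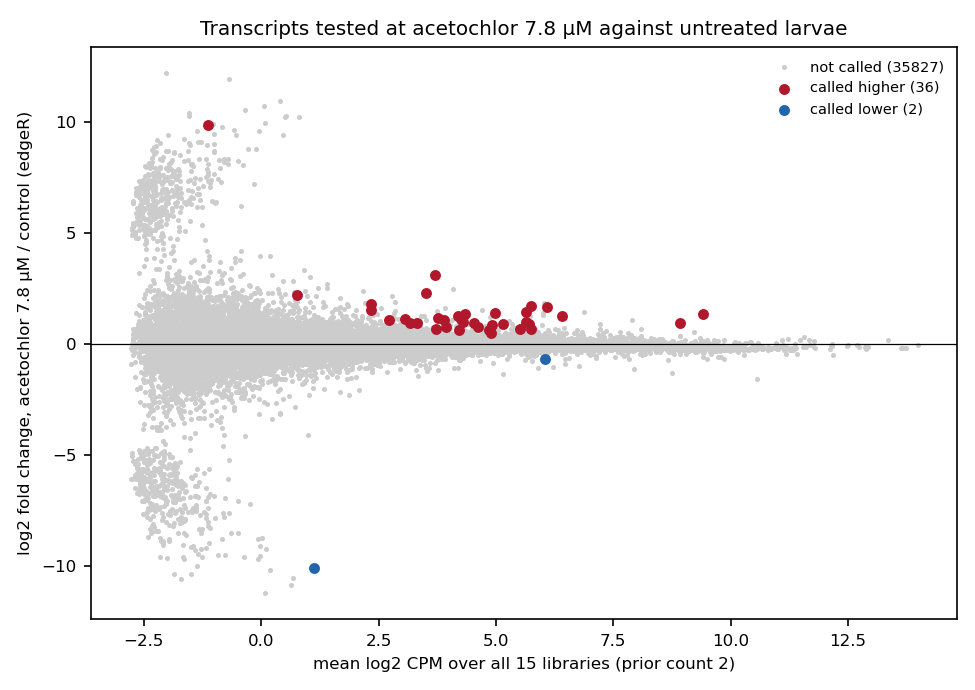
Each point is 1 of the transcripts tested, with its mean log2 CPM over the 15 libraries on the x axis and its edgeR log2 fold change at acetochlor 7.8 µM against control on the y axis. The 36 transcripts called higher (red) lie mostly at moderate abundance, and the 2 called lower are in blue. The far points at low abundance, up to 12.19 and down to -11.2, are transcripts at or near 0 in 1 group.

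The member with the smallest p-value was ENSDART00000087724.6. It had 6.04, 6.81 and 7.74 CPM in the control libraries I, II and III, and 34.3, 35.5 and 31.0 CPM at acetochlor 7.8 µM. This was a 4.89-fold rise (2.29 ± 0.117 on the log2 scale, SE; edgeR adjusted p = 3.84e-06). The 3 exposed libraries were close to each other and far above the controls, and replicate III was the lowest of them.

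ENSDART00000159326.2 was the most abundant member. Its control values were 552, 563 and 619 CPM and its values at 7.8 µM were 1510, 1600 and 1290 CPM, a 2.54-fold rise (log2 fold change 1.34, SE 0.0795, edgeR adjusted p = 1.15e-05). ENSDART00000043403.6 went from 19.3, 16.4 and 20.4 CPM to 50.2, 52.0 and 48.0 CPM (2.68-fold, log2 fold change 1.42, SE 0.0879, edgeR adjusted p = 1.3e-05). In both, the groups were separated by a wide margin, and replicate III was again lowest of the exposed libraries while still above every control.

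Of these transcripts, ENSDART00000087724.6 and ENSDART00000043403.6 had whole-number estimates in all 15 libraries. A fractional estimate arises where the counting tool divides reads between transcripts that share sequence. Of the 38 members, 11 (28.9%) were whole in every library, against 21.2% of all transcripts tested. The level of the other 27 can be less certain. The division between transcripts of 1 gene, or between similar genes, could not be followed without names. Not all were fractional throughout: ENSDART00000011397.7 was so in 2 of the 15 libraries and ENSDART00000154164.3 in 1.

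The next raised transcripts by p-value had fractional estimates. ENSDART00000145251.2 had 17.5, 17.5 and 16.6 CPM in control and 39.5, 42.2 and 32.2 CPM at 7.8 µM (2.21-fold, edgeR adjusted p = 0.000267). ENSDART00000081663.6 had 39.4, 46.7 and 37.4 CPM in control and 136, 150 and 113 CPM at 7.8 µM (3.23-fold, edgeR adjusted p = 0.000422). In each, replicate III was the lowest exposed library but was well over the highest control.

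ENSDART00000064789.3 doubled, from 34.4, 34.5 and 36.4 CPM to 74.7, 80.5 and 57.0 CPM (2.02-fold, edgeR adjusted p = 0.00105). ENSDART00000187384.1 went from 14.3, 14.7 and 16.1 CPM to 41.2, 39.8 and 29.1 CPM (2.44-fold, edgeR adjusted p = 0.00105). ENSDART00000134921.3 went from 51.0, 41.9 and 52.0 CPM to 172, 165 and 117 CPM (3.13-fold, edgeR adjusted p = 0.00105). Among these, replicates I and II nearly coincided and replicate III lay clearly under them.

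ENSDART00000047050.8 had 15.4, 14.8 and 18 CPM in control and 44.0, 43.9 and 36.4 CPM at 7.8 µM (2.58-fold, edgeR adjusted p = 0.00105). ENSDART00000105898.6 had 10.6, 9.32 and 10 CPM in control and 25.2, 24.9 and 18.3 CPM at 7.8 µM (2.29-fold, edgeR adjusted p = 0.00196). ENSDART00000078382.7 had 11, 9.42 and 11.8 CPM in control and 25.1, 23.9 and 19.0 CPM at 7.8 µM (2.11-fold, edgeR adjusted p = 0.00443). Again the groups did not overlap and replicate III was the lowest exposed library.

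ENSDART00000011397.7 differed widely between exposed libraries. It had 3.94, 3.48 and 4.45 CPM in control, and 43.4, 45.5 and 13.9 CPM in replicates I, II and III at 7.8 µM. The mean rose 8.66-fold (log2 fold change 3.11, SE 0.355, edgeR adjusted p = 0.00387), the largest fold of the 35 members above 0 in control. Replicates I and II agreed closely, while replicate III was raised much less. The SE and p-value rest on a spread estimated over all 5 groups, not on the exposed libraries alone. The call was lost when the fit held only the 2 groups compared, and when it held only the control and acetochlor libraries.

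Abundance set 1 further raised transcript apart, ENSDART00000147769.2, with a mean above 200 CPM. It had 360, 371 and 349 CPM in control and 724, 747 and 635 CPM at 7.8 µM (1.95-fold, log2 fold change 0.96, SE 0.147, edgeR adjusted p = 0.0346). Its estimates were whole in all libraries. The groups were well apart, but the call was lost in 5 of the 6 fits that left out 1 of these libraries, and was kept without acetochlor 7.8 µM replicate III.

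**Figure D2:**
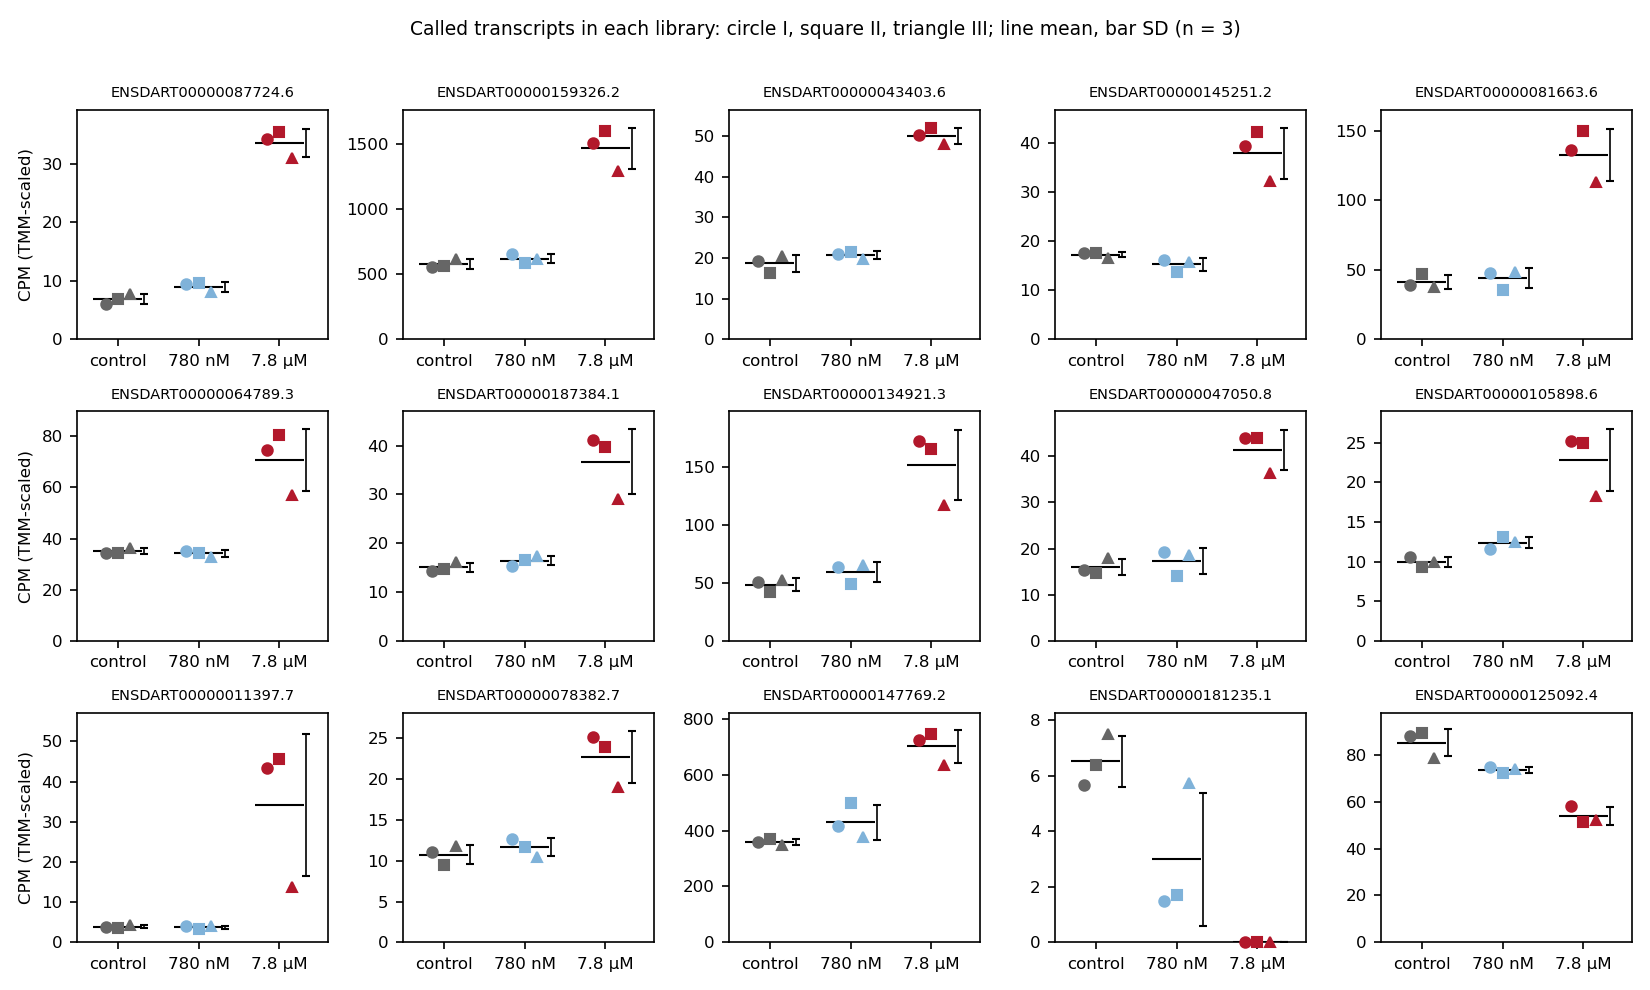
The 15 panels show the members described in full, with TMM-scaled CPM on a linear y axis from 0 and the control (grey), acetochlor 780 nM (light blue) and acetochlor 7.8 µM (red) libraries on the x axis. Circles, squares and triangles are replicates I, II and III, horizontal lines are means and bars are SD (n = 3). In the 13 raised transcripts every red point lies above every grey and light blue point, and the red triangle is the lowest of its group.

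The other 23 raised transcripts had larger p-values than the 12 given first. In 7 of them the mean at least doubled: ENSDART00000010282.9 (2.41-fold), ENSDART00000154164.3 (2.71-fold), ENSDART00000174522.2 (4.6-fold), ENSDART00000193815.1 (2.15-fold), ENSDART00000017756.9 (2.17-fold), ENSDART00000194116.1 (3.52-fold) and ENSDART00000162256.2 (2.95-fold). Their control means ran from 1.11 to 77.2 CPM and their means at 7.8 µM from 5.12 to 186 CPM. In all 7, replicate III was the lowest exposed library and was above every control library and every library at 780 nM. Their edgeR adjusted p-values ran from 0.00605 to 0.0412.

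A further 14 rose 1.54-fold to 1.96-fold, from control means of 6.27 to 44.7 CPM. They were ENSDART00000019353.9, ENSDART00000146451.3, ENSDART00000098682.5, ENSDART00000169600.2, ENSDART00000110715.4, ENSDART00000055287.6, ENSDART00000140367.2, ENSDART00000153412.3, ENSDART00000172892.2, ENSDART00000164375.2, ENSDART00000035558.8, ENSDART00000130131.4, ENSDART00000138081.2 and ENSDART00000022060.8. Replicate III was the lowest exposed library in 13 of these 14. The exception was ENSDART00000098682.5, with 33.2, 35.2 and 34.3 CPM in replicates I, II and III against 16.7, 15.2 and 21.2 CPM in control. The smallest change among the raised members was that of ENSDART00000110396.3, from 27.5, 25.4 and 28.2 CPM to 38.9, 39.9 and 34.7 CPM (1.4-fold, edgeR adjusted p = 0.0487).

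The last raised transcript, ENSDART00000138569.2, was listed at 0 in all 3 control libraries. It had 4.67, 3.11 and 9.64 CPM at acetochlor 7.8 µM, at least 37.8-fold higher when set against 3 counts in a control library (0.154 CPM). It was the only raised member in which replicate III was the highest exposed library. It was also listed at 0 in all libraries at acetochlor 780 nM and tefluthrin 60 nM, and had 2.40, 4.83 and 4.70 CPM at tefluthrin 2.3 µM. Its estimates are fractional, and a listed 0 can then be the result of how shared reads were divided. Its edgeR adjusted p was 0.0346, and adjusted p-values ran from 5.59e-10 to 0.607 over the alternatives, DESeq2 and limma voom included.

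Both lowered transcripts had fractional estimates. ENSDART00000125092.4 had 88.1, 89.1 and 78.4 CPM in control and 58.3, 51.3 and 52.2 CPM at 7.8 µM, which is -0.66 ± 0.0808 on the log2 scale (SE; edgeR adjusted p = 0.00605). The exposed libraries were all under the controls, and replicate III did not stand apart. ENSDART00000181235.1 had 5.68, 6.40 and 7.50 CPM in control and was listed at 0 in the 3 libraries at 7.8 µM, at least 41.1-fold lower when set against 3 counts (0.159 CPM). That bound covers counting error only, and here too a listed 0 can be the result of how shared reads were divided. ENSDART00000181235.1 had 1.5, 1.72 and 5.76 CPM at acetochlor 780 nM, 4.91, 5.66 and 5.52 CPM at tefluthrin 60 nM and 7.25, 7.91 and 2.69 CPM at tefluthrin 2.3 µM. Its edgeR adjusted p was 0.005, and adjusted p-values ran from 1.46e-10 to 0.677 over the alternatives, DESeq2 and limma voom included. It was not called with limma voom, nor by edgeR with the control and acetochlor libraries alone.

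Just outside the threshold, the next 3 transcripts by p-value were ENSDART00000044860.6, ENSDART00000113097.4 and ENSDART00000152724.3. The first had 39.6 CPM in control and 51.1 CPM at 7.8 µM, the second 23.9 and 17.7 CPM, and the third 6.98 and 13.5 CPM. Just inside it were ENSDART00000110396.3, with 27.0 and 37.8 CPM, and ENSDART00000022060.8, with 9.86 and 16.6 CPM.

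Members were more abundant than most transcripts tested. Their median control level was 16.6 CPM, against 4.26 CPM over all transcripts tested. Higher counts carry less relative counting error, and its part in which transcripts were called was not tested. Summed over the 36 raised members, the level was 1560, 1560 and 1670 CPM in the control libraries, 1810, 1770 and 1700 CPM at acetochlor 780 nM, and 3830, 3980 and 3160 CPM at 7.8 µM. Much of that sum came from ENSDART00000159326.2 and ENSDART00000147769.2.

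Replicate III of acetochlor 7.8 µM showed the same direction as replicates I and II in all 38 members, but a smaller change in nearly all of the raised ones. It was the lowest of the 3 exposed libraries in 34 of the 36 raised members, whereas replicate I was lowest in 1 and replicate II in 1. Among the 35 raised members above 0 in control, replicates I and II were within 10% of their mean of each other in 31. The shares of all transcripts tested with these features were not computed. Over transcripts with whole-number estimates, replicates I and II differed by 2.94 times counting error in chi-square per degree of freedom. Replicate III differed from them by 6.49 and 7.4 times. Such values were not particular to it, since control pairs gave 3.04 to 7.56 and acetochlor 780 nM pairs 9.42 to 22.9. The log2 difference of replicate III from the control mean was a median of 0.708 of that of replicates I and II, between 0.497 and 1.01. The smallest share belonged to ENSDART00000110715.4, with 69.8, 74.1 and 54.8 CPM in replicates I, II and III against 42.6, 40.1 and 43.1 CPM in control. ENSDART00000011397.7 followed with 0.517, and ENSDART00000130131.4 had 0.52. At the other end were ENSDART00000098682.5, with 1.01, and ENSDART00000043403.6, with 0.938. Replicate III also had the lowest total of the 6 libraries compared and the largest scaling factor, and their part in this difference was not tested.

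Because all 3 exposed libraries chose the members, each was also measured in transcripts called without it. The control libraries are the same in both steps and helped choose the transcripts, so shares above those over all transcripts tested are expected in part. Without replicate I, 17 transcripts were called higher, and replicate I was above all 3 controls in all 17. Without replicate II, 13 were called higher, and replicate II was above all controls in all 13. Without replicate III, 88 were called higher, and replicate III was above all controls in 78. Over all transcripts tested, the libraries I, II and III were above every control in 26.5%, 28.0% and 27.9%. The median ratio of the left-out library's log2 change to that of the other 2 was 1.15 for replicate I, 1.17 for replicate II and 0.532 for replicate III. These ratios rest on different sets of transcripts, so their sizes are not directly comparable. For replicates I and II, the other 2 libraries include replicate III, which was the lowest in most raised members.

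The same was done for transcripts called lower. Replicate I was under all controls in 3 of 6, replicate II in 1 of 2 and replicate III in 12 of 22. The shares over all transcripts tested were 24.5%, 26.5% and 27.4%. All 38 members were among the 110 transcripts called without replicate III, and the other 72 of those were not called with it.

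**Figure D3:**
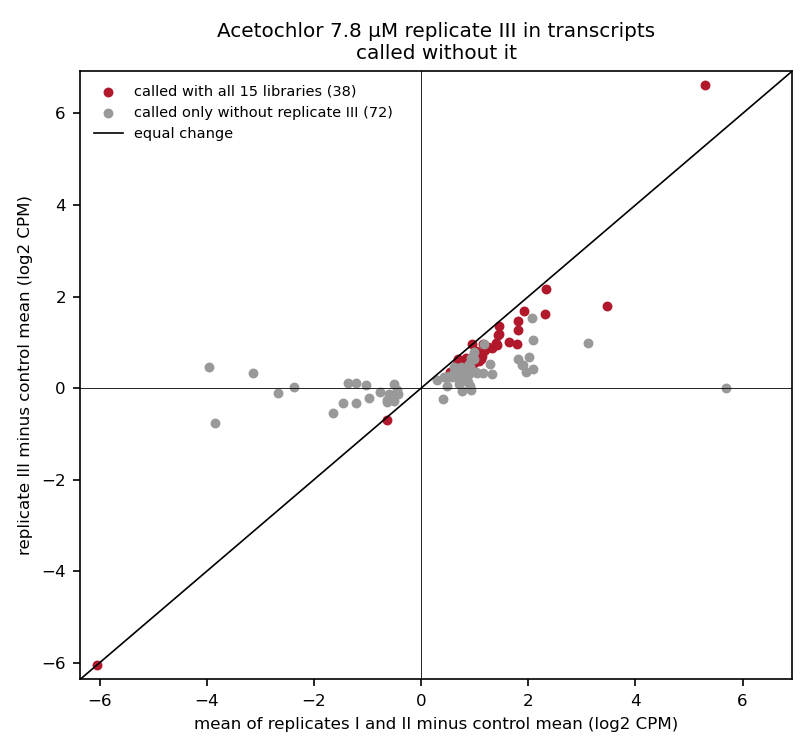
Each point is 1 of the 110 transcripts called without acetochlor 7.8 µM replicate III, with the mean log2 CPM difference of replicates I and II from the control mean on the x axis and that of replicate III on the y axis; red points are the 38 members and the line marks equal change. Most raised transcripts lie between 0 and the line, with a median ratio of 0.532, and several lowered ones lie near 0 on the y axis.

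The control libraries were treated the same way. Here the exposed libraries are the same in both steps and helped choose the transcripts. Shares above those over all transcripts tested are therefore expected in part from that choice. Among 20 transcripts called higher without control replicate I, that library was under all 3 exposed libraries in 15. The figures were 17 of 20 for control replicate II and 28 of 30 for control replicate III, where 22.5%, 25.6% and 22.0% of all transcripts tested had such a value. Of those called lower, the left-out control was above all exposed libraries in 2 of 3, 2 of 2 and 5 of 6, against 23.8%, 26.7% and 25.1% of all transcripts tested. Of the 38 members, 14 kept the call in each of the 6 fits with 1 library left out. Those 14 were the 12 raised transcripts with the smallest p-values together with ENSDART00000019353.9 and ENSDART00000181235.1. Without replicate III all 38 stayed called, without replicate II 14, without replicate I 19, and without control replicates I, II and III 15, 17 and 25.

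The lower concentration of acetochlor gave levels close to control in most members. The comparisons of 780 nM and of 7.8 µM with untreated larvae use the same control libraries, so the values are set side by side. ENSDART00000087724.6 had 9.41, 9.54 and 8.01 CPM at 780 nM, just above its highest control of 7.74 CPM and far under its lowest value of 31.0 CPM at 7.8 µM. ENSDART00000159326.2 had 654, 588 and 618 CPM and ENSDART00000043403.6 had 21.1, 21.5 and 19.7 CPM, both overlapping their controls. The raised members above 0 in control stood at 0.888-fold to 1.59-fold of control at 780 nM, with a median of 1.09-fold. Of the 36 raised members, 29 had a positive log2 fold change at 780 nM. In 7 all 3 libraries at 780 nM were above all controls, and in 8 none was. The shares over all transcripts tested were not computed, and the same controls helped choose the members.

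ENSDART00000172892.2 was the raised member with the highest level at 780 nM relative to 7.8 µM. It had 5.28, 6.14 and 7.38 CPM in control, 10.2, 9.54 and 10.3 CPM at 780 nM and 13.0, 13.5 and 9.37 CPM at 7.8 µM. The 780 nM libraries were all above control, and replicate III at 7.8 µM lay under them. Its log2 fold change at 780 nM was 0.67, with an unadjusted p of 0.000612 in the edgeR fit, which was not under the threshold after adjustment. ENSDART00000194116.1 had 2.20, 3.81 and 2.03 CPM at 780 nM against 1.65, 0.973 and 2.42 CPM in control, which overlap.

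The lowered ENSDART00000125092.4 had 74.7, 72.1 and 73.9 CPM at 780 nM, between its controls (78.4 to 89.1 CPM) and its values at 7.8 µM (51.3 to 58.3 CPM). Across all transcripts, edgeR's quasi-likelihood test called 0 at 780 nM against control, with 909 (2.53%) at an unadjusted p under 0.05. DESeq2 called 92 and limma voom 0. Without 1 library the edgeR count was 3 at most.

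The concentrations were also compared directly. Of all transcripts tested, 24 (0.0669%) differed between 7.8 µM and 780 nM, 23 of them higher at 7.8 µM (0.0641%). Of the 36 raised members, 21 were called in this test. The 7.8 µM libraries that chose the members enter it too, so this count is a description. The largest differences among raised members above 0 in control were a log2 value of 3.18 for ENSDART00000011397.7 (edgeR adjusted p = 0.00388), with 4, 3.36 and 3.98 CPM at 780 nM, and of 2.34 for ENSDART00000174522.2 (edgeR adjusted p = 0.0267). For ENSDART00000087724.6 the difference was 1.90 (SE 0.114, edgeR adjusted p = 2.8e-05). The lowered ENSDART00000181235.1 was the 1 transcript called lower than at 780 nM (edgeR adjusted p = 0.019), with the values given above. In place of 24, the count came to 12, 9 and 66 when acetochlor 7.8 µM replicate I, II or III was omitted, and to 15 when acetochlor 780 nM replicate II was.

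The 15 raised members not called between the concentrations had changes of 1.54-fold to 3.52-fold against control, and log2 differences of 0.26 to 1.2 from 780 nM. All but 1 of them still had every library at 7.8 µM above every library at 780 nM. The exception was ENSDART00000172892.2. Over all transcripts tested, 4.02% had the 3 libraries at 7.8 µM above the 3 at 780 nM, compared with the 6.42% above the 3 controls.

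**Figure D4:**
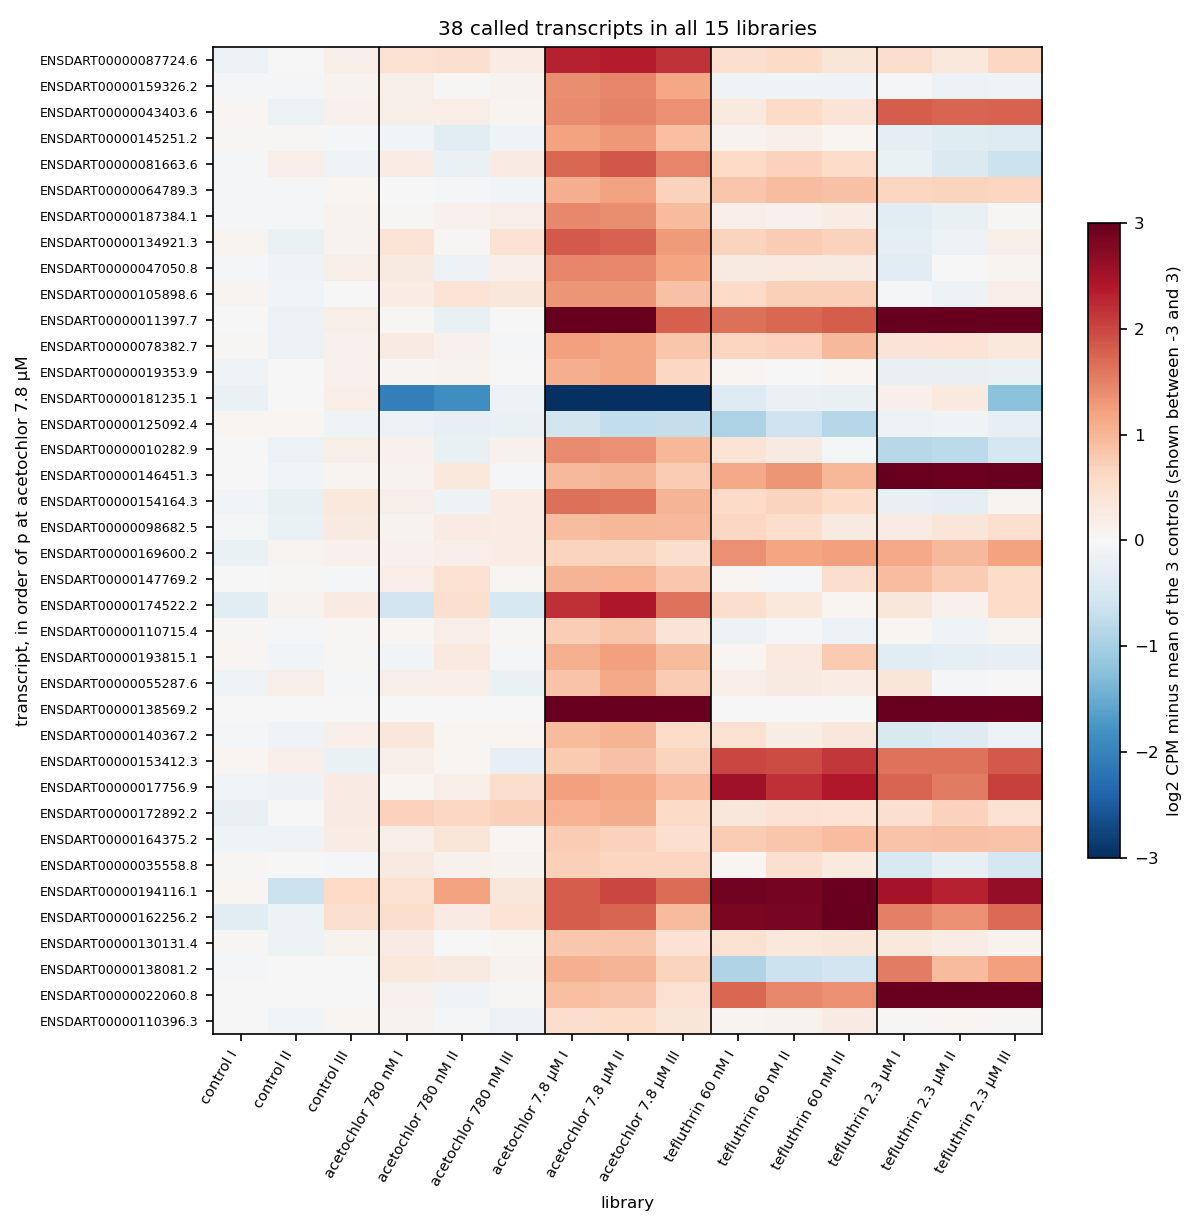
Rows are the 38 members in order of p-value and columns are the 15 libraries in 5 groups of 3; color gives log2 CPM minus the mean of the 3 control libraries, shown between -3 and 3. The acetochlor 7.8 µM columns are red in the 36 raised rows and paler in replicate III for most. The 780 nM columns are near white in most rows, but not for ENSDART00000181235.1, which was lower in replicates I and II. Tefluthrin columns are red in some rows and blue in others.

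The members did not share 1 profile in the tefluthrin libraries, which have the same controls. Of all transcripts tested, edgeR called 16.4% at tefluthrin 60 nM and 29.8% at 2.3 µM against control, and 11.8% and 28.4% between acetochlor 7.8 µM and each of these groups. ENSDART00000159326.2 stood at 536 ± 5.29 CPM at tefluthrin 60 nM and 535 ± 27.0 CPM at 2.3 µM (SD, n = 3), against 578 ± 35.9 CPM in control and 1470 ± 160 CPM at acetochlor 7.8 µM. Acetochlor 7.8 µM and tefluthrin 2.3 µM differed directly in this transcript (edgeR adjusted p = 1.19e-07). ENSDART00000087724.6 had 9.52 ± 0.721 and 9.62 ± 0.971 CPM at the tefluthrin concentrations, above its control level of 6.86 ± 0.853 CPM (edgeR adjusted p = 0.0142 and 0.00678) and far under its level with acetochlor (edgeR adjusted p = 3.59e-07 against 2.3 µM).

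Other members were higher with tefluthrin than with acetochlor. ENSDART00000022060.8 had 190 ± 17.3 CPM at tefluthrin 2.3 µM, against 16.6 ± 2.61 CPM at acetochlor 7.8 µM and 9.86 ± 0.0835 CPM in control. ENSDART00000146451.3 had 208 ± 17.2 CPM at tefluthrin 2.3 µM, against 47.3 ± 4.56 CPM at acetochlor 7.8 µM. For both, the direct test between compounds gave an edgeR adjusted p of 8.09e-09 and 1.18e-07. ENSDART00000162256.2 was highest at tefluthrin 60 nM, with 16.0 ± 1.88 CPM, and had 5.97 ± 0.732 CPM at tefluthrin 2.3 µM and 6.07 ± 1.82 CPM at acetochlor 7.8 µM.

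Of the 36 raised members, 19 were called higher and 1 lower than control at tefluthrin 60 nM. At 2.3 µM, 18 were called higher and 4 lower. Over all transcripts tested, 16.4% and 29.8% were called in either direction. The controls are shared, so these counts are a description. ENSDART00000064789.3 and ENSDART00000011397.7 were among the members raised at acetochlor 7.8 µM and at both tefluthrin concentrations. The first had 64.4 ± 1.95 CPM at tefluthrin 60 nM, 55.1 ± 0.303 CPM at 2.3 µM and 70.7 ± 12.2 CPM at acetochlor 7.8 µM, from 35.1 ± 1.11 CPM in control (edgeR adjusted p = 5.54e-05, 0.000286 and 0.00105). The second had 13.4 ± 0.774, 60.6 ± 10.3 and 34.3 ± 17.7 CPM, from 3.95 ± 0.483 CPM in control (edgeR adjusted p = 0.00422, 5.87e-06 and 0.00387). The wide SD of the second at acetochlor 7.8 µM comes from replicate III. A further such member, ENSDART00000043403.6, had 25.1 ± 2.53 and 64 ± 1.78 CPM at tefluthrin 60 nM and 2.3 µM (edgeR adjusted p = 0.00495 and 5.03e-08). It had 50.1 ± 1.99 CPM at acetochlor 7.8 µM and 18.7 ± 2.06 CPM in control. The lowered ENSDART00000125092.4 was also lower at tefluthrin 60 nM, with 49.1 ± 5.25 CPM (edgeR adjusted p = 2.73e-05), and had 75 ± 2.98 CPM at 2.3 µM (edgeR adjusted p = 0.108).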

How the data were processed

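Poly(A)-selected libraries were made from Trizol-extracted RNA, per the labels' protocols. The deposited files hold 1 estimated count per Ensembl transcript and library, not scaled for depth; the submitters' processing notes name Salmon 1.6.0, FastQC, MultiQC and the build GRCz11, and the annotation release is not given in the sources used here. Groups and replicate numbers came from the labels. Column headers give nanomolar for the higher tefluthrin group, where the labels give micromolar; the labels were used.

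Estimated counts were rounded to whole numbers. Of 64995 transcripts, 35865 passed edgeR's filterByExpr. Scaling was by TMM. The edgeR quasi-likelihood model had group as its only term and was fitted to all 15 libraries, with two-sided tests and Benjamini-Hochberg adjustment over all transcripts tested. Standard errors (SE) are the log2 fold change over the square root of its F statistic, as an absolute value. Log2 CPM used a prior count of 2. A floor of 3 counts, for counting error only, came to 0.119 to 0.159 CPM in the 6 libraries compared. The model was also run on simulated independent counts. These held neither a deviating replicate nor reads shared between transcripts, so the run does not bear on either. Replicate pairs of the control and acetochlor groups differed by 2.94 to 22.9 times counting error in chi-square per degree of freedom, so each library counted once.

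Every called transcript is listed. Values in each library are given for the 12 raised transcripts with the smallest p-values, for those above 200 CPM at 7.8 µM and for the lowered ones. Others are named where they stand at the end of a range, beside the threshold or in contrast to acetochlor, and these were chosen after their values were seen. The members, lists and rules were chosen with earlier results of these data known. Lists of genes by pathway could not be applied without gene names. Over all transcripts tested, same-numbered control and acetochlor libraries did not deviate together, so replicate numbers were not used in the model. Software was edgeR 4.0.16, DESeq2 1.42.0 and limma 3.58.1 under R 4.3.3, with matplotlib 3.10.9 under Python 3.11.15 for figures.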

Additional observations from a re-analysis of the deposited data

Results flagged for a closer look

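In a direct test, 24 transcripts differed between acetochlor 7.8 µM and acetochlor 780 nM, as described above.

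Compounds moved 4 raised members in opposite directions at their higher concentrations, each called against the shared controls and in the direct test of acetochlor 7.8 µM against tefluthrin 2.3 µM. Over all transcripts tested, 29.8% were called at tefluthrin 2.3 µM in either direction. The share meeting this rule was not computed, so 4 of 36 is not shown to be more than over all transcripts. Of the 36 raised members, 18 were called higher there than in control, such as ENSDART00000022060.8, and 4 lower. Both comparisons use the same controls, so these counts are a description. The 4 were ENSDART00000145251.2, with 38 ± 5.17 CPM at acetochlor 7.8 µM, 17.2 ± 0.507 CPM in control and 13.4 ± 0.469 CPM at tefluthrin 2.3 µM (SD, n = 3); ENSDART00000081663.6, with 133 ± 19.0, 41.2 ± 4.93 and 30.7 ± 4.59 CPM; ENSDART00000010282.9, with 186 ± 28.9, 77.2 ± 9.60 and 46.8 ± 5.35 CPM; and ENSDART00000035558.8, with 19.1 ± 0.583, 12 ± 0.335 and 8.97 ± 0.928 CPM. The edgeR adjusted p-values at tefluthrin 2.3 µM against control were 0.0131, 0.0467, 0.00381 and 0.0119.

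At tefluthrin 60 nM, 1 raised member, ENSDART00000138081.2, was called lower than control and differed from acetochlor 7.8 µM. Of the 36 raised members, 19 were called higher than control there. Over all transcripts tested, 16.4% were called at this concentration in either direction, and the controls are shared here too. The share called lower was not computed, so 1 of 36 is not shown to be more than over all transcripts. ENSDART00000138081.2 had 14.9 ± 2.17 CPM at acetochlor 7.8 µM, 7.81 ± 0.183 CPM in control and 4.76 ± 0.559 CPM at tefluthrin 60 nM (edgeR adjusted p = 0.00766 against control). At tefluthrin 2.3 µM it was higher, with 18.8 ± 3.93 CPM (edgeR adjusted p = 5.55e-05).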

How the results depend on the processing

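No member changed direction under any alternative. In all 38 the exposed and control libraries did not overlap, so this outcome was nearly fixed in advance and is no measure of robustness. Of the 38, 5 stayed called in every alternative that gave them a value: ENSDART00000087724.6, ENSDART00000159326.2, ENSDART00000043403.6, ENSDART00000081663.6 and ENSDART00000047050.8. Against control, acetochlor 7.8 µM gave 431 calls with DESeq2 (252 higher, 179 lower; 38 of the members among them), 75 with library totals as the only scaling, 21 when the fold change also had to reach 1 on the log2 scale, 24 with the control and acetochlor libraries alone (17 of the members), 10 with the 2 groups alone (7 of the members) and 24 of 7595 transcripts with whole estimates. With 1 library left out it gave 15 to 110. Against 780 nM, the count was 217 with DESeq2, 6 with the control and acetochlor libraries alone, 2 with the 2 groups alone, and 9 to 66 with 1 library left out. At 780 nM against control it was 92 with DESeq2 and 0 to 3 with 1 library left out. With the replicate number as a block, the counts were 24 (22 of the members), 12 and 0. Same-numbered control and acetochlor libraries had correlations of -0.0679 to 0.0228 in their deviations over all transcripts tested. Such correlations cannot exclude a pairing that acts on some transcripts only. The causes of these shifts were not tested, also where an alternative removes libraries or transcripts. Levels under about 3 counts in a library were not detectable at this depth.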
